A study of Homo sapiens with 12 samples.

Results

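The nuclear genes of the mitochondrial respiratory chain were followed in HCT116 cells, an established colon carcinoma cell line, after inhibition of TOP1 or TOP2 and after TNFα. The genes were taken by symbol: NDUFA, NDUFB, NDUFC, NDUFS and NDUFV names with a number, SDHA to SDHD, names starting with UQCR, COX4 to COX8 names that continue with A, B or C, and ATP5 names that continue with a letter. Pseudogene and antisense names, 5 in all, were left out. This gave 86 of the 26364 gene symbols counted. Of these, 37 were placed with complex I, 4 with complex II, 9 with complex III, 17 with complex IV and 19 with complex V. The placement includes readthrough symbols, gene copies and factors that are not subunits. A read was found for 82 of them in at least 1 library, and between 77 and 78 passed the expression filter of each test.

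The respiratory chain sits in the inner mitochondrial membrane. Complexes I and II pass electrons from NADH and succinate to ubiquinone, complex III passes them on to cytochrome c, and complex IV, cytochrome c oxidase, gives them to oxygen. Complexes I, III and IV pump protons, and complex V, the ATP synthase, makes ATP from the gradient. All subunits of complex II and most subunits of the other complexes are made from nuclear genes, and the rest come from mitochondrial DNA, whose genes were not analysed here. Core subunits include those that carry the redox centres or the catalytic sites, and accessory subunits surround them. Among the genes taken here, the core proteins UQCRC1 and UQCRC2 of complex III were also counted as core, and no gene of complex IV was. In complex V only ATP5A1, ATP5B and ATP5C1 were counted as core. Its other subunits, ATP5D, ATP5E, ATP5O and ATP5G1 to ATP5G3 among them, were counted as accessory.

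RNA-seq was done on HCT116 WT cells and on clone 32, a p65-deficient clone that the paper describes as made with CRISPR-Cas9, while the deposited labels read shRNA p65. p65, encoded by RELA, is a subunit of the transcription factor NF-κB. Both lines received no inhibitor, the TOP1 inhibitor camptothecin (CPT) or the TOP2 inhibitor ICRF193, each at 5 µM for 2 h. TNFα at 20 ng/mL was added for the 1 h sample and absent from the 0 h sample. The paper describes the inhibitor as given for 2 h before TNFα, so exposure to it can have been longer in the 1 h libraries. In pairs with inhibitor, an effect of TNFα and one of longer exposure cannot be told apart. The same holds for the interaction of CPT and TNFα. Each of the 12 combinations has 1 library, so conditions were compared over matched pairs that differ in cell line, TNFα or inhibitor. As clone 32 is a single clone, an effect of p65 and a difference particular to the clone cannot be told apart.

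Between 8101212 and 22051046 reads were counted per library, and 4 libraries of clone 32 were shallow, with fewer than 9000000 reads: ICRF193 at 0 h, and all libraries of the clone at 1 h TNFα. The 2 libraries of each pair of CPT and no inhibitor had the same depth class. RELA had 694 to 909 normalized counts in WT and 548 to 673 in clone 32, where normalized means scaled by DESeq2 size factors over the 12 libraries. Summed normalized counts of 9 colon carcinoma epithelium markers ranged from 58084 to 74177, against at most 196 for the marker lists of immune cells, fibroblasts, endothelium and muscle. Such counts are relative to the other RNAs of a library: a rise of these mRNAs and a loss of other RNAs cannot be told apart, and neither can fewer cells and less RNA per cell.

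With CPT, the mRNAs of most respiratory chain genes were higher by a small amount, in all complexes. The 86 genes held 1.15% to 1.19% of the counted reads in the 4 libraries with CPT and 0.947% to 1.01% in the 8 libraries without it. In WT cells at 0 h the share was 0.985% (95% Clopper-Pearson interval 0.981% to 0.990%, counting error only) without inhibitor and 1.18% (1.17% to 1.18%) with CPT. With ICRF193 it was 1.01%. The 4 CPT libraries stood above all others. Among the 8 libraries without CPT, the 4 of clone 32 (0.947% to 0.968%) lay below the 4 of WT (0.985% to 1.01%), and the same order held with CPT (1.15% and 1.17% against 1.18% and 1.19%).

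**Figure D1:**
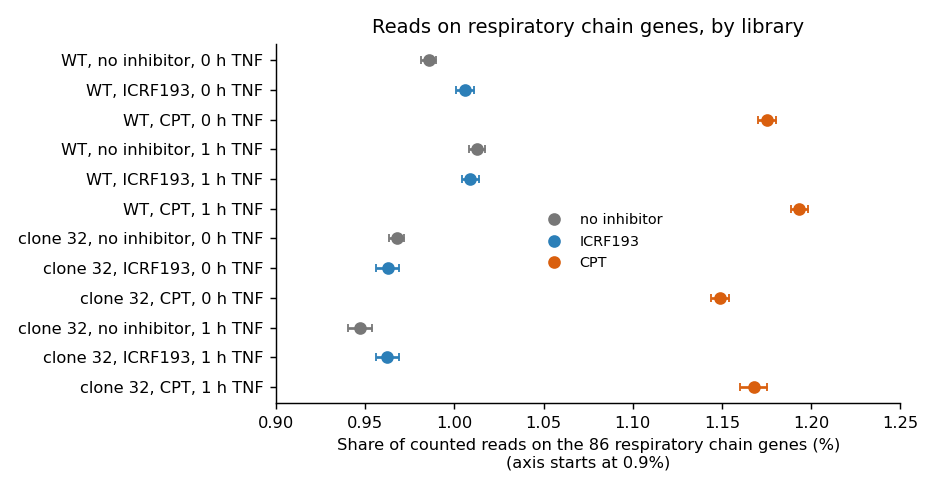
Share of all counted reads that fell on the 86 respiratory chain genes (x axis, percent, starting at 0.9%) in each of the 12 libraries (y axis), with exact 95% binomial intervals that cover counting error only. The 4 CPT libraries (orange) sit between 1.15% and 1.19%, and the 8 libraries with no inhibitor (grey) or ICRF193 (blue) between 0.947% and 1.01%.

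The quasi-likelihood test of edgeR, run over the 4 pairs and adjusted over all genes by Benjamini-Hochberg, called 67 of the 78 tested genes higher with CPT than without inhibitor and 1 lower, against 23.2% of all 13993 tested genes higher and 25.1% lower. The median log2 fold change of the respiratory chain genes was 0.27, a 1.21-fold rise, and that of all tested genes was 0.02. The median log2 ratio in the single pairs was 0.24 and 0.23 in WT at 0 and 1 h TNFα, and 0.26 and 0.36 in clone 32. A total of 72 genes were higher in each of the 4 pairs, a count that was not made over all tested genes. COX6B2, a gene with few reads, passed the filter only in fits that include CPT libraries, so its high CPT values brought it into the test. Without it 66 of 77 genes were called higher and 1 lower. For 55 genes (54 without COX6B2), every CPT library was above every one of the 8 other libraries, against 14.1% of all tested genes. In the WT pairs alone 54 of 78 genes were called higher (17.3% of all tested genes), and in the clone pairs alone 65 of 77 (24.7%).

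**Figure D2:**
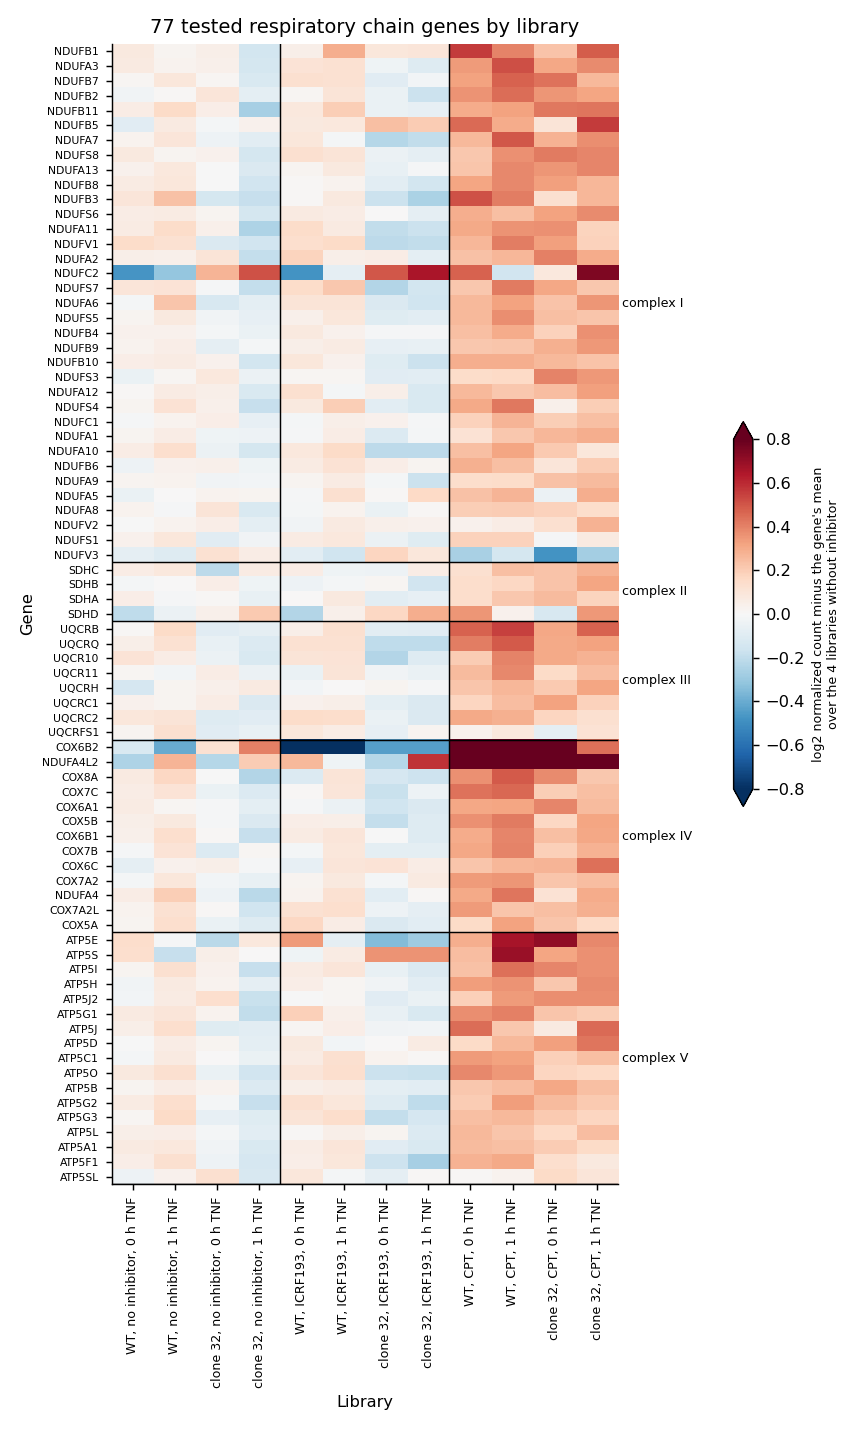
Heat map of 77 of the 78 tested genes (y axis, grouped by complex and ordered by the CPT log2 fold change) in the 12 libraries (x axis, grouped by no inhibitor, ICRF193 and CPT). Colour gives the log2 normalized count minus the gene's mean over the 4 libraries without inhibitor, with values beyond 0.8 in either direction shown at the end of the scale. The 4 CPT columns are red for nearly all genes, NDUFV3 is blue in them, and NDUFC2 varies between WT and clone 32.

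In complex I, the NADH dehydrogenase, 30 of 36 tested genes were called higher and 1 lower. NDUFB7, an accessory subunit of the membrane arm, had 1086, 1144, 1083 and 984 normalized counts in the libraries without inhibitor (WT at 0 and 1 h, then clone 32 at 0 and 1 h) and 1340, 1487, 1447 and 1282 in the corresponding CPT libraries. All CPT libraries lay above all the others, and the log2 fold change was 0.36 ± 0.05 (SE, 4 pairs; edgeR adjusted p = 0.00012). NDUFS8, a core subunit that carries iron-sulfur clusters, went from 1300, 1250, 1260 and 1118 to 1429, 1583, 1641 and 1610. Its rise was thus larger in the clone pairs and at 1 h TNFα than in WT at 0 h, with no overlap between CPT and the other libraries (log2 fold change 0.33 ± 0.06, edgeR adjusted p = 0.00087). NDUFA3 and NDUFB1, accessory subunits, had log2 fold changes of 0.37 and 0.40. For NDUFB1, the CPT library of clone 32 at 0 h, at 374, lay below the WT library with ICRF193 at 1 h, at 389, so its groups overlapped.

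Of the core subunits of complex I, a part was called. NDUFV1, which binds NADH and FMN, NDUFS7, NDUFS8 and NDUFS3 were called higher, with log2 fold changes of 0.29, 0.28, 0.33 and 0.25. NDUFS1, the largest core subunit, had a log2 fold change of 0.10 ± 0.04 (edgeR adjusted p = 0.073), and NDUFV2 0.11 ± 0.06 (edgeR adjusted p = 0.16).

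NDUFV3, an accessory subunit beside the NADH-binding site, was the single gene called lower. It had 712, 697, 817 and 780 normalized counts without inhibitor and 627, 679, 539 and 620 with CPT. The log2 fold change was -0.29 ± 0.09 (edgeR adjusted p = 0.017). The WT pair at 1 h differed little, with a log2 ratio of -0.04 (95% interval -0.17 to 0.10), while the clone pair at 0 h had -0.60 (-0.74 to -0.46). In the 2 WT pairs alone the gene was not called, nor was it without the clone pair at 0 h.

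In complex II, the succinate dehydrogenase, SDHA and SDHB were called higher among 4 genes. SDHA, the flavoprotein, had 1678, 1604, 1630 and 1553 normalized counts without inhibitor and 1784, 1875, 1923 and 1828 with CPT (log2 fold change 0.19 ± 0.05, edgeR adjusted p = 0.0064). SDHB, the iron-sulfur subunit, had a log2 fold change of 0.20 ± 0.04. The membrane anchors were not called: SDHC had 0.21 ± 0.09 (edgeR adjusted p = 0.070) although every CPT library lay above the others, and SDHD had 0.15 ± 0.10 (edgeR adjusted p = 0.26). SDHD went from 501 to 738 in WT at 0 h but from 594 to 527 in clone 32 at 0 h, so its pairs had opposite signs.

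In complex III, which oxidizes ubiquinol, 7 of 8 tested genes were called higher. UQCRB, an accessory subunit next to the ubiquinone sites, had 2211, 2439, 2056 and 2089 normalized counts without inhibitor, 2267, 2401, 2073 and 2064 with ICRF193, and 3044, 3205, 2723 and 3040 with CPT. The CPT libraries lay well above the others, and the log2 fold change of 0.44 ± 0.04 (edgeR adjusted p = 9.8e-06), a 1.36-fold rise, had the smallest p among the respiratory chain genes. UQCRQ, another small accessory subunit, had 0.37 ± 0.04 (edgeR adjusted p = 2.5e-05) and also no overlap. Of its exonic bases, 4.86% are shared with GDF9, which had at most 24 reads in a library.

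Among the core subunits of complex III, UQCRC1 and UQCRC2, the core proteins, were called higher with log2 fold changes of 0.22 and 0.21. UQCRFS1, the Rieske iron-sulfur protein, had 939, 1012, 869 and 887 normalized counts without inhibitor and 948, 981, 879 and 1001 with CPT. With a log2 fold change of 0.03 ± 0.06 (edgeR adjusted p = 0.70), it was the respiratory chain gene nearest to 0.

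In complex IV the 12 genes that passed the filter in every comparison were called higher. COX8A, the smallest subunit, had 2754, 2944, 2616 and 2228 normalized counts without inhibitor and 3378, 3686, 3406 and 3040 with CPT (log2 fold change 0.35 ± 0.04, edgeR adjusted p = 4.2e-05). COX7C, another small accessory subunit, had 0.33 ± 0.04, and COX5B, which binds zinc, had 0.31 ± 0.05. Both had no overlap between the CPT libraries and the others. NDUFA4, first described in complex I and now placed in complex IV, had 0.27 ± 0.06 and overlapped.

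NDUFA4L2 and COX6B2, both isoforms with few reads, had larger ratios. NDUFA4L2, a paralog of NDUFA4 that is known to be induced in hypoxia, had 12.5, 17.9, 12.6 and 17.0 normalized counts without inhibitor and 25.8, 37.2, 37.5 and 47.1 with CPT. Its log2 fold change was 1.26 ± 0.21 (edgeR adjusted p = 0.00054), a 2.39-fold rise from 10 to 22 reads per library without inhibitor. COX6B2, the testis isoform of COX6B1, had 5.91, 4.87, 7.02 and 8.50 without inhibitor and 19.1, 18.2, 16.4 and 8.73 with CPT. As these values brought it past the filter, they are given as a description. The clone pair at 1 h had 5 reads in each library. NDUFA4L2 shares 2.78% of its exonic bases with SHMT2 on the opposite strand, which had 2067 to 6349 reads, and the reads were counted without strand. Whether reads of SHMT2 add to NDUFA4L2 was not tested. The other isoforms of muscle or testis were near 0: COX6A2 and COX7B2 had no read in any library, which allows up to 3 reads per library, and COX7A1 had 3.21 to 12.2 normalized counts.

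In complex V, 15 of 17 tested genes were called higher. ATP5B, the catalytic beta subunit, had 20489, 21101, 20655 and 18719 normalized counts without inhibitor and 23445, 23948, 25069 and 23892 with CPT. No library overlapped, and the log2 fold change was 0.24 ± 0.05 (edgeR adjusted p = 0.0017). ATP5A1 and ATP5C1, the alpha and gamma subunits, had 0.20 ± 0.04 and 0.27 ± 0.04. ATP5E, the epsilon subunit, had the largest change of the complex (0.53 ± 0.16, edgeR adjusted p = 0.020), with 37.9 to 78.8 normalized counts over the libraries. It was lost from the calls with DESeq2, and 66.3% of its exonic bases are shared with the readthrough symbol SLMO2-ATP5E, so most of its reads can have been left uncounted. The genes not called were ATP5S and ATP5SL, which carry the family name but are factors and not subunits of the enzyme.

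Accessory and core subunits were called in different shares. Of 56 accessory subunits 53 were called higher and 1 lower, with a median log2 fold change of 0.28. Of 17 core subunits 11 were called higher, with a median of 0.21. All subunits of complex V were called higher, and most of them were counted as accessory, so these shares depend on that choice. The difference between the kinds was not tested, and core genes had a longer median span on the genome, 15080 against 8401 bp.

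**Figure D3:**
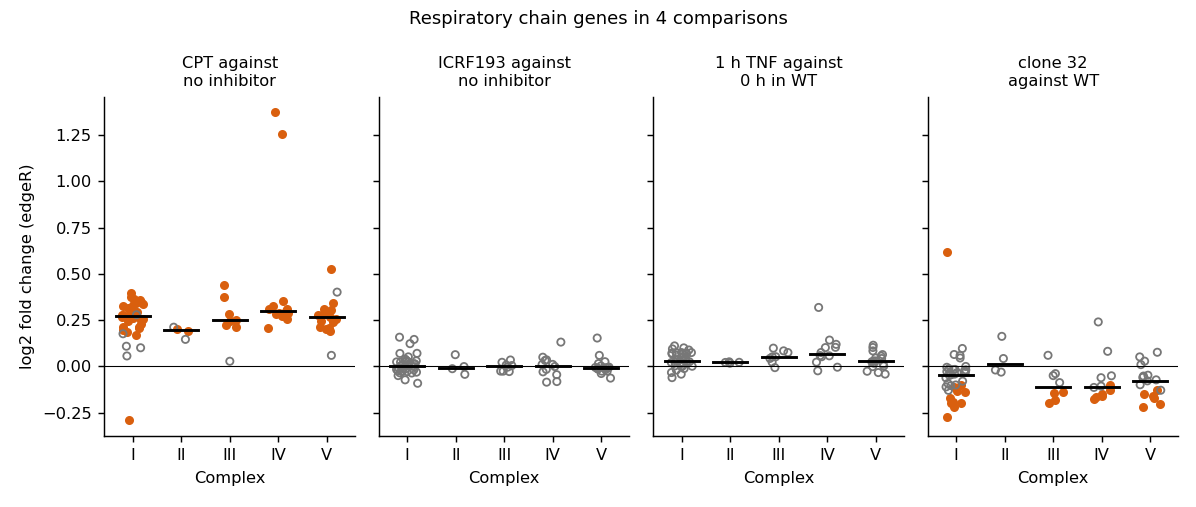
log2 fold changes from edgeR (y axis) of each tested respiratory chain gene, by complex (x axis), in 4 comparisons. Filled orange points passed an adjusted p of 0.05, open grey points did not, and black bars are medians. With CPT the points lie above 0 in all complexes apart from NDUFV3, with ICRF193 and TNFα they lie around 0 with none called, and in clone 32 most lie slightly below 0.

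The effect of CPT was also larger than that of the TOP2 inhibitor when both were compared directly. CPT libraries were called higher than ICRF193 libraries for 65 of 78 genes and lower for NDUFV3 (20.9% and 25.5% of all tested genes), with a median log2 fold change of 0.25. The 65 genes and the median include COX6B2, whose high CPT values brought it into the test. This comparison shares the CPT libraries with that against no inhibitor. UQCRB had 0.43 in it and COX8A 0.42. ICRF193 against no inhibitor gave no call among 77 genes with edgeR (2.17% of all tested genes), with 5 genes at an unadjusted p under 0.05, and no call with DESeq2. The median log2 fold change with ICRF193 was -0.0012, and the single genes ranged from -0.09 for NDUFB3 to 0.16 for NDUFC2.

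The CPT response did not differ detectably between cell lines or TNFα states. The interaction of CPT and cell line gave no call among 78 genes with edgeR or DESeq2 (4.51% of all tested genes with edgeR), with 6 genes at an unadjusted p under 0.05. The interaction of CPT and TNFα gave none with either tool and none at an unadjusted p under 0.05 (0.00715% of all tested genes). NDUFV3, NDUFC2 and SDHD were called for the interaction with the cell line when genes with few reads were not filtered, each with a lower CPT effect in clone 32. These are 3 of 82 genes, beside 1096 of 20662 tested genes called in that fit.

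The respiratory chain genes are short, with a median genomic span of 9472 bp against 25344 bp, and the calls with CPT varied with span. Of all tested genes of up to 5000 bp, 47.0% were called higher and 14.5% lower, and of those above 50000 bp 8.46% were called higher and 33.1% lower. In genes of up to 5000 bp, the median log2 fold change was 0.31 for 15 respiratory chain genes and 0.24 for all tested genes. Between 10000 and 20000 bp it was 0.26 for 26 genes against 0.08, and between 20000 and 50000 bp 0.20 for 8 genes against -0.01. The 4 genes above 50000 bp had a median of 0.21, where all genes had -0.09. NDUFS4, an accessory subunit of 122707 bp, had 0.23 ± 0.07 (edgeR adjusted p = 0.021), and NDUFA10, of 68031 bp, had 0.21 ± 0.04 (edgeR adjusted p = 0.0023). Across the respiratory chain genes the log2 fold change fell with span (Spearman's rho -0.55, n = 78 genes, which share the 12 libraries), as it did across all tested genes (rho -0.32, n = 13838). The 78 genes include COX6B2, whose high CPT values brought it into the test.

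**Figure D4:**
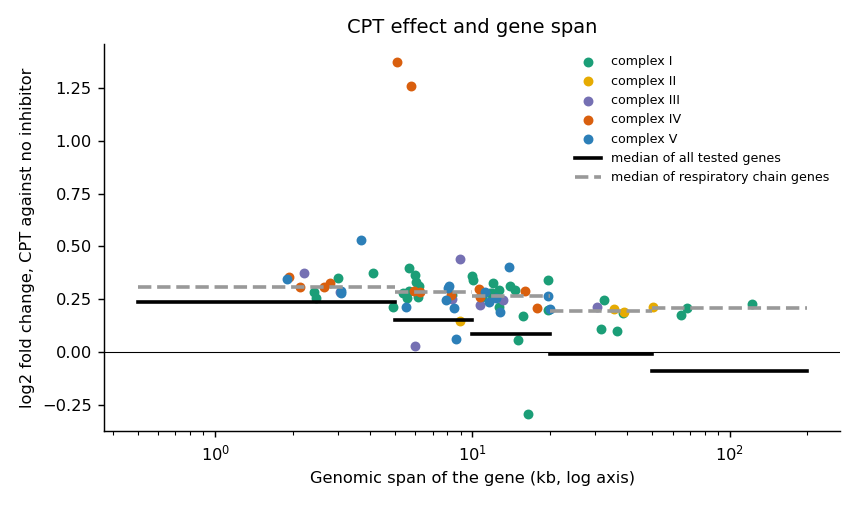
log2 fold change with CPT against no inhibitor (y axis) and genomic span (x axis, kb, log scale) of the 78 tested respiratory chain genes, coloured by complex. Black lines give the median of all tested genes in 5 classes of span and dashed grey lines that of the respiratory chain genes. The grey lines run from 0.31 in the shortest class to 0.21 in the longest, the black lines from 0.24 to -0.09.

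Other genes of oxidative metabolism, taken from lists, moved to differing degrees with CPT, beside 23.2% of all tested genes called higher and 25.1% lower. All 7 tested chain genes outside the symbol rule were called higher, among them COX4I1 (0.27) of complex IV, CYCS, which encodes cytochrome c (0.28), and ATPIF1, the inhibitor of the ATP synthase (0.36). Of 13 citric acid cycle genes 8 were called higher and none lower, with a median of 0.15. Of 48 assembly factors, which build the complexes but do not stay in them, 14 were called higher and 9 lower, with a median of 0.10. Their shares, 29.2% higher and 18.8% lower, were near those of all tested genes. COA7, an assembly factor of complex IV, fell by 0.94 and SDHAF1, which helps insert iron-sulfur clusters into SDHB, fell by 0.84 on the log2 scale. The largest rises called were those of COX20 (0.65) and SDHAF4 (0.62), both with few reads, then COX18 (0.43) and NDUFAF3 (0.42). Of 76 mitochondrial ribosomal protein genes 28 were called higher and 6 lower (median 0.11), and of 75 cytosolic ribosomal protein genes 63 were called higher and none lower (median 0.25). The median and the share of calls of the respiratory chain genes were thus close to those of the cytosolic ribosomal protein genes.

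The list of regulators holds genes that act on nuclear chain genes and genes that act on mitochondrial DNA, such as TFB2M and MTERF1. Against 25.1% of all tested genes lower and 23.2% higher, 6 of its 12 tested genes were called lower, including both, and 1 higher. The median log2 fold change was -0.19. The other 5, YY1, TFAM, TFB1M, POLRMT and GABPA, had log2 fold changes from -0.06 to 0.09. NRF1, a transcription factor that binds promoters of respiratory chain genes, had 672, 617, 535 and 554 normalized counts without inhibitor and 204, 231, 120 and 103 with CPT. The CPT libraries were all far below the others, and the log2 fold change was -1.87 ± 0.14 (edgeR adjusted p = 1.1e-06). PPRC1, a coactivator of the PGC-1 family, had -1.18, PPARGC1B, another member of that family, -0.96, and GABPB1, a subunit of the ETS factor GABP, -0.56. GABPA, the DNA-binding subunit, had 0.05 (edgeR adjusted p = 0.66), and ESRRA, an orphan nuclear receptor, rose by 0.26. The spans of these genes run from 7844 bp for MTERF1, a mitochondrial transcription termination factor (-1.15), to 145380 bp for NRF1.

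Sites for such factors were looked up in promoters as the members moved together with CPT. RefSeq promoter windows of GRCh38.p14 matched 68 of the 86 genes, 13 of them under a newer symbol, and the 250 bases before the start were searched on both strands. The NRF1 letters GCGCANGCG were found in 19 of these 68 windows (27.9%), in 7.02% of all 27305 promoters and in 12.9% of 10105 promoters of genes tested with CPT. The ETS letters CCGGAAG were found in 16 (23.5%), against 8.82% and 15.6%. The YY1 letters AANATGGC were in 4 windows (5.88%, against 3.91% and 4.15%), the SP1 letters GGGCGG in 36 (52.9%, against 42.3% and 67.6%), CCAAT in 23 (33.8%, against 33.0% and 34.7%) and the TATA letters TATAAA in 7 (10.3%, against 11.1% and 5.08%). No motif contains another. Of the 57 genes called higher with CPT that have a window, 16 (28.1%) hold the NRF1 letters and 14 (24.6%) the ETS letters.

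The 150 bases before the start are shown for 5 of the 6 genes with the largest rise among those called higher with CPT, with a mean of at least 20 reads and higher in every pair, and for NDUFV3, the gene that fell. They are from RefSeq, build GRCh38.p14, 5′ to 3′ on the gene's strand, with NRF1, ETS and YY1 letters in capitals.
NDUFA4L2 (chr12:57240763-57240912, minus strand): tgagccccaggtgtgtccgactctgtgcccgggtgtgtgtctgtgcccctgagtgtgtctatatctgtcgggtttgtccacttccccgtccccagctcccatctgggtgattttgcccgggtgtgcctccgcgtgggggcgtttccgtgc
ATP5E (chr20:59032336-59032485, minus strand): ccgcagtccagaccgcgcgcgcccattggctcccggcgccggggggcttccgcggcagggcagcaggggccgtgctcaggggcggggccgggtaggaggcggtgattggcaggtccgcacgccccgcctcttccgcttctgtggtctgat
NDUFB1 (chr14:92121707-92121856, minus strand): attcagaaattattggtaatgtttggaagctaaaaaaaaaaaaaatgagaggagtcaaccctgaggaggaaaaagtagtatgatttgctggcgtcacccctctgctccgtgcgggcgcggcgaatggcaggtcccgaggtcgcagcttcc
UQCRQ (chr5:132866492-132866641, plus strand): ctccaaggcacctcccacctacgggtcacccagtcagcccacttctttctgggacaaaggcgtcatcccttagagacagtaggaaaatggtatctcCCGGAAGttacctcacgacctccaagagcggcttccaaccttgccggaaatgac
NDUFA3 (chr19:54102705-54102854, plus strand): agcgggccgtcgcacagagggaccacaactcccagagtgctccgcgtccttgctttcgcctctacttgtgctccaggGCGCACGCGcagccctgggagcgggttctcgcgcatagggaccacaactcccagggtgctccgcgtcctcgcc
NDUFV3 (chr21:42893159-42893308, plus strand): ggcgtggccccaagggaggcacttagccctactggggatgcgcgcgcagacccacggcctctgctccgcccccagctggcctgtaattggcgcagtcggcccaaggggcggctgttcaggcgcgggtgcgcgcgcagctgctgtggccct
UQCRQ held the ETS letters and NDUFA3 the NRF1 letters, and the windows of the other genes held none of these letters in the stretch shown.

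TNFα for 1 h gave no call among 77 respiratory chain genes in WT cells over 3 pairs with edgeR (0.642% of all tested genes), with 6 genes at an unadjusted p under 0.05, and none with DESeq2. The median log2 fold change was 0.04, and 31 genes were higher in all 3 pairs, which was not counted over all tested genes. The largest value was that of NDUFA4L2 (0.32), a gene with few reads. COX8A, with 0.14 and higher in all 3 pairs, was called when the pair with CPT was left out, as 1 of 77 genes beside 372 of 13625 tested genes. In clone 32 the pair without inhibitor had a median log2 ratio of -0.09, the CPT pair 0.04 and the ICRF193 pair -0.0049. In the first 2 of these pairs the library at 1 h was the shallow one, so an effect of TNFα cannot be told apart from one of depth.

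Between the cell lines, slightly lower values were found in clone 32, together with a difference in depth. Over 6 matched pairs edgeR called 26 of 77 genes lower and NDUFC2 higher, against 16.9% of all tested genes lower and 15.2% higher, and the median log2 fold change was -0.07. In the 4 pairs in which the clone library was shallow, 31 of 77 genes were called lower (17% of all tested genes) and 3 higher, with a median of -0.09. In the 2 pairs in which it had more than 9000000 reads, none of 78 genes was called with edgeR (3.65% of all tested genes), 2 had an unadjusted p under 0.05, and the median was -0.03. This subset was added after the depths were seen and rests on 2 pairs, and DESeq2 was not run on it. Both of its pairs were at 0 h TNFα, while the shallow pairs were ICRF193 at 0 h and all pairs at 1 h. Depth and TNFα thus cannot be told apart in this split. Thinning all 12 libraries to the read number of the smallest gave 19 of 77 genes lower and 1 higher with edgeR. Of all 12625 tested genes, 1922 were called lower and 1753 higher after thinning. The median log2 fold change of the respiratory chain genes was then -0.08, against -0.07 without thinning. With no pair in the fit, 1 of the 27 genes was called and it was higher, while no respiratory chain gene was called lower. Of all 13730 tested genes, 1042 were called higher and 1001 lower in that fit. As CPT libraries lay higher in both lines, no gene had all 6 clone libraries below all 6 WT libraries (4.92% of all tested genes). In each of the 6 pairs, 20 genes were lower, which was not counted over all tested genes.

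**Figure D5:**
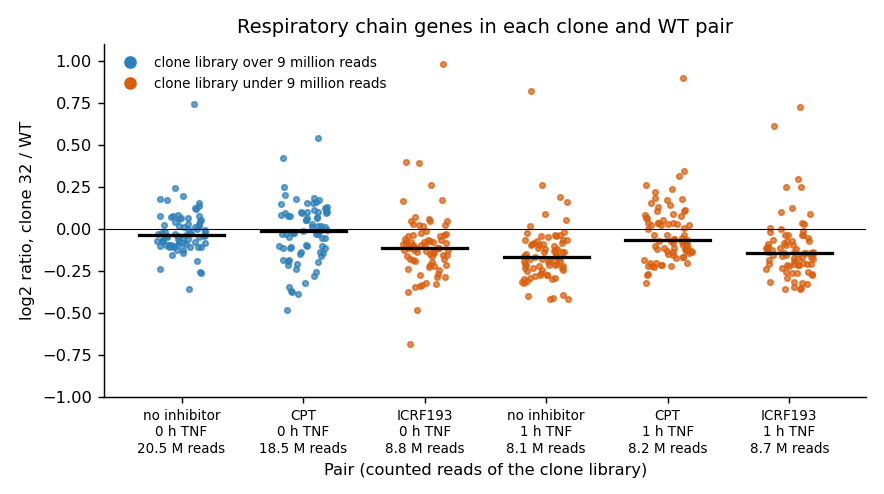
log2 ratio of clone 32 to WT (y axis) of each of the 77 tested respiratory chain genes in the 6 matched pairs (x axis, with the counted reads of the clone library in units of M), black bars being medians. The medians are -0.04 and -0.02 in the 2 pairs with a deep clone library (blue) and -0.07 to -0.17 in the 4 pairs with a shallow one (orange). Both deep pairs are at 0 h TNFα, and all pairs at 1 h have a shallow clone library.

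ATP5O, the subunit that joins the stalk of the ATP synthase to its head, had 2586, 3196 and 2620 normalized counts in WT at 0 h (no inhibitor, CPT, ICRF193) and 2367, 2762 and 2176 in clone 32. At 1 h it had 2678, 3120 and 2691 in WT and 2209, 2742 and 2164 in clone 32. The clone was lower in all 6 pairs, with a log2 fold change of -0.22 ± 0.04 (edgeR adjusted p = 0.00044). In the 2 deep pairs the log2 fold change was -0.17 ± 0.09 (edgeR adjusted p = 0.36). NDUFB3, an accessory subunit of complex I, had the lowest value, -0.27 ± 0.05 (edgeR adjusted p = 0.0019) over 6 pairs and -0.31 ± 0.13 (edgeR adjusted p = 0.24) in the deep pairs. NDUFV1 had -0.22 over 6 pairs and -0.10 in the deep pairs. ATP5F1, NDUFA10, UQCRQ and UQCRC2 were also called lower over 6 pairs, with log2 fold changes of -0.20, -0.20, -0.20 and -0.18.

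NDUFC2, an accessory subunit of the membrane arm of complex I, had the largest ratio of the highest to the lowest normalized count among the tested genes of that complex. It had 198, 381 and 197 normalized counts in WT at 0 h (no inhibitor, CPT, ICRF193), 222, 247 and 262 at 1 h, and 332, 291 and 388, then 391, 461 and 433 in clone 32. The clone was higher in 5 pairs and lower with CPT at 0 h, and the log2 fold change was 0.62 ± 0.14 (edgeR adjusted p = 0.0048) over 6 pairs and 0.17 ± 0.21 (edgeR adjusted p = 0.75) in the deep pairs. The gene was singled out after its values were seen. In all, 32.2% of its exonic bases are shared with the readthrough symbol NDUFC2-KCTD14, which had no read, or with THRSP on the opposite strand, which had at most 24 reads, and reads on bases of more than 1 symbol were not counted.

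The levels of the genes spanned orders of magnitude. Per kb of exonic length, the highest median normalized counts over the 12 libraries were 11399 for ATP5B, 5869 for COX7C, 5812 for NDUFB9, 5489 for COX8A and 4796 for ATP5A1. The lowest among tested genes were 3.89 for COX6B2, 15.0 for NDUFA4L2, 21.2 for ATP5S, 73.5 for NDUFA5 and 87.9 for SDHC. Over the 4 libraries without inhibitor, with or without TNFα, the median subunit of complex IV had 3134 per kb, that of complex V 2381, of complex III 1310, of complex I 1022 and of complex II 473. The order of the complexes was the same in all 12 libraries. Subunits of one complex thus differed in their counts per kb far more than any of them changed with CPT.

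The genes varied little besides CPT. The median coefficient of variation of 74 genes with a mean of at least 100 normalized counts was 6.51% over the 8 libraries without CPT, 5.72% over the 4 with CPT and 11.7% over all 12. For all tested genes with such counts these values were 7.66%, 8.30% and 11.4%.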

How the data were processed

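Total RNA of 12 HCT116 samples was sequenced from stranded libraries. The authors trimmed the reads with trimmomatic and counted reads per gene with featureCounts 1.5.0 (per the file headers) on hg19; the submitters' processing notes also name STAR. The deposited values are raw counts per gene symbol, with no normalization. Reads were counted without strand, and reads on bases of more than 1 symbol were not counted. The libraries held 8101212 to 22051046 counted reads, and intervals cover counting error only.

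Members, gene lists and the rule for named genes were chosen with earlier results of these data known. The rule takes up to 6 members per direction and comparison with an adjusted p under 0.05, all pairs moving the same way and a mean count of 20 or more, up to 4 called in 2 comparisons, any called in an interaction, core subunits, isoforms, and the 5 highest and 5 lowest levels per kb. Genes outside it are given as examples of their complex or list.

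Tests used edgeR 4.0.16 (TMM normalization, expression filter, quasi-likelihood test, matched pair as block, R 4.3.3, limma 3.58.1), with Benjamini-Hochberg adjustment over all tested genes and 0.05 as threshold. The SE is the log2 fold change divided by the square root of the test statistic. Pairs differ in condition and stand in for replicates, so p-values measure the spread between these pairs, which can be technical. The test was checked on simulated data with 200 changed genes. Single pairs were compared by normalized counts (DESeq2 1.42.0 size factors) with no pseudocount. Alternatives were other scalings, no low-count filter, DESeq2, thinning to 8101212 reads, no block and leaving out pairs. Coverage profiles were not used here. A tested gene is not reported by name here.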

Additional observations from a re-analysis of the deposited data

Results flagged for a closer look

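No respiratory chain gene differed in its CPT effect between WT cells and clone 32 by the interaction test. Of 80 other tested genes of oxidative metabolism 2 did, beside 4.51% of all tested genes. The log2 fold change of NRF1 with CPT was lower in clone 32 than in WT by -0.70 (SE 0.16, edgeR quasi-likelihood adjusted p = 0.022), with 204 and 231 normalized counts in the WT libraries with CPT and 120 and 103 in those of clone 32. COX19, an assembly factor of complex IV, had a difference of 0.64 (SE 0.14, edgeR adjusted p = 0.020): its normalized count went from 377 to 282 and from 343 to 312 in the WT pairs, and from 274 to 374 and from 304 to 370 in the clone pairs. Both libraries of the clone pair at 1 h TNFα were shallow, and the part of depth in these differences was not tested.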

How the results depend on the processing

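With CPT, 60 to 69 respiratory chain genes were called under the other scalings, the filter, DESeq2, thinning and each omitted pair. The main fit called 6763 of all 13993 tested genes. Without the clone pair at 1 h TNFα there were 60, beside 5254 of 14103 tested genes. Thinning gave 69, beside 5933 of 12815, and DESeq2 64, beside 5296 of 13993. With no replicate block 66 genes were called, beside 5180 of 13993 tested genes, and in the WT pairs alone 54, beside 5847 of 14125. The median log2 fold change ranged from 0.23 to 0.28 when a pair was left out. The gap in the share of reads between the lowest CPT library and the highest other library was 0.136 percentage points and 0.168 without the 100 genes with the highest counts.

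The calls between clone 32 and WT depended on the pairs. Leaving out a pair gave 15 to 36 calls, with 15 without no inhibitor at 1 h or without ICRF193 at 1 h. There were 17 without ICRF193 at 0 h, with 16 of 78 genes lower and 1 higher, beside 1787 and 1553 of 13828 tested genes. Without no inhibitor at 1 h, 14 of 77 genes were lower and 1 higher, beside 1799 and 1572 of 13815 tested genes. Without ICRF193 at 1 h, 14 of 78 genes were lower and 1 higher, beside 1727 and 1459 of 13786. With 36 calls, without CPT at 0 h, 32 of 77 genes were lower and 4 higher, beside 2639 and 2497 of 13656. No replicate block gave 1 call, which was higher, and 0 lower. The 2 deep pairs alone gave 0 calls and rest on fewer samples. With total counts, 57.5% of all genes called between the lines were higher, against 47.5% with TMM, while the respiratory chain genes were still mostly called lower (19 of 21). The pairing comes from the shared treatment, not from a shared culture.

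TNFα in WT gave 0 to 1 calls when a pair was left out, the 1 being COX8A without the CPT pair, beside 372 of 13625 tested genes. The interaction of CPT and cell line gave 1 call with total counts (NDUFV3) and 3 with no filter, beside 692 of 13993 and 1096 of 20662 tested genes. The cause of these changes was not tested. The genes that the naming rule took by rank of fold change or level per kb were followed across the alternatives. The 18 of them called with CPT and the 10 called between the lines kept their direction in those comparisons. Under at least 1 alternative, 6 of the 18 lost their call with CPT and all 10 lost it between the lines. Other genes named, among them core subunits and isoforms taken by name only, were not followed. In the shallow libraries counting error limits genes such as COX6B2.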
